A study of Mus musculus with 6 samples.

Results

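ER-associated degradation removes misfolded proteins from the endoplasmic reticulum, and 9 of its genes were followed here in granulocyte-monocyte progenitors, the bone marrow cells that give rise to neutrophils and monocytes. The genes were Herpud1, Syvn1, Sel1l, Derl1, Derl2, Derl3, Edem1, Edem2 and Os9. They were taken by name from a deposited table of 24205 genes, and each name occurred once. The set was chosen by measured values: Herpud1 and Syvn1 were selected on their TPM difference between the groups compared here, and the others as their partners in the pathway. Their differences, and those of the other members in the same comparison, are therefore given as a description with no test. The progenitors came from the bone marrow of C57BL/6 mice that had undergone either a sham operation or hindlimb ischemia, a surgical cut in blood flow to one hind leg. Each of the 2 groups held 3 libraries, and the mice carried no other stated allele or agent. The labels used here give no age, no interval between surgery and sorting, and no statement that each library is a separate animal, so any spread is that between libraries. The comparison asks whether hindlimb ischemia alters these progenitors.

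A protein of the endoplasmic reticulum that fails to fold has its sugar chain trimmed by mannosidases of the EDEM family, is recognised by the lectin OS9, and is handed to the membrane adaptor SEL1L. SEL1L holds the ubiquitin ligase SYVN1, also called HRD1, and the complex includes the Derlin proteins and HERPUD1. The ubiquitinated chain is pulled into the cytosol by the ATPase VCP and destroyed by the proteasome. Several of these genes are targets of the unfolded protein response, whose factors XBP1 and ATF6 bind endoplasmic reticulum stress elements in promoters. Progenitors of this kind make large amounts of granule proteins such as myeloperoxidase, which pass through the endoplasmic reticulum.

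The promoters are shown because 3 of the 8 members with a RefSeq window held a stress element. The windows are those of the RefSeq annotation on GRCm38.p6, the assembly of mm10, and Derl1 had no entry. The 250 bases upstream of the annotated start of Herpud1 (chr8:94386179-94386428, plus strand), Syvn1 (chr19:6046326-6046575, plus strand) and Derl3 (chr10:75893148-75893397, plus strand) read as follows, with the fixed letters of a matched element in capitals.
Herpud1: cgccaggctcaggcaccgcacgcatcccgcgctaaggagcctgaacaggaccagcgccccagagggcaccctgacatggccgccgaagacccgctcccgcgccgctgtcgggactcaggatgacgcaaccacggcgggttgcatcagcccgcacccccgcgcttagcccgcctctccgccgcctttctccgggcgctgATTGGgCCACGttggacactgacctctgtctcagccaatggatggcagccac
Syvn1: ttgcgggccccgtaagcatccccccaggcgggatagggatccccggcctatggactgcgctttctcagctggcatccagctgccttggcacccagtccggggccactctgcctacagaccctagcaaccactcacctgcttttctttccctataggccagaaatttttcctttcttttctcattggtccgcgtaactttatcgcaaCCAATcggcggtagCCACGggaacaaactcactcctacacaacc
Derl3: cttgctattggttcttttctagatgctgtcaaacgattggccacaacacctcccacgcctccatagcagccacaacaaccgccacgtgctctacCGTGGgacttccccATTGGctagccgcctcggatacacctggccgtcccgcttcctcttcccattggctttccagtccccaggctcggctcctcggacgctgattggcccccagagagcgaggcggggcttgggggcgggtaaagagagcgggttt
Each window of 300 bases, which also takes in the first bases after the start, was searched on both strands. The endoplasmic reticulum stress element, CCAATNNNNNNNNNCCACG, lay in the Syvn1 window from -44 to -26 relative to the start and, on the other strand, in the Derl3 window from -156 to -138. It was found in 0.119% of all 32851 promoter windows in the table. The second form of the element, ATTGG, any base, then CCACG, lay in the Herpud1 window from -52 to -42 and was found in 0.0365% of all windows. None of the 8 members held the unfolded protein response element TGACGTGG, the cyclic AMP element TGACGTCA or the composite element TGATGNAAT, which were in 0.676%, 1.79% and 0.965% of all windows. The letters CCACG, which both stress elements share and whose search was added after the windows had been read, occurred in 8 of 8 members and in 32.8% of all windows. The shares are over single windows, whereas a gene was counted if any of its windows matched, and Derl2 had more than 1. Among 55 other genes of the pathway with a window, 0 held the first form and 1, the J protein gene Dnajb11, held the second. The unfolded protein response element was held by 3 of the 55, Txndc11, Ube2j1 and Vcp. The cyclic AMP element was held by 1, Sgta, and the composite element by 0. Among 9 endoplasmic reticulum chaperone genes with a window, 7 held the first form, including Hspa5 and Hsp90b1.

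Levels in the sham libraries spanned a wide range. They are given as TPM (transcript abundance scaled for the length of each gene and summed to a fixed library total), a unit in which genes can be compared. Herpud1 had the highest mean, 188 ± 15.3 TPM (SD, n = 3 here and for each mean that follows), above 92.6% of the 13787 genes tested. Derl1 at 109 ± 13.5, Edem2 at 108 ± 10.7, Os9 at 99.6 ± 16.2 and Edem1 at 91.6 ± 14.0 TPM followed, and neighbours in this order differed by less than 1 SD. The ligase complex itself was lower, with Sel1l at 44.1 ± 5.83 and Syvn1 at 38.7 ± 3.25 TPM, which also differed by less than 1 SD of Sel1l. Derl2 had 17.5 ± 0.36 TPM, near the middle of all genes tested. Derl3, the Derlin most often linked to secretory cells, had 2.48 ± 0.565 TPM, from about 73 to 127 reads per library. The gap between Derl1 and Derl3 held in every library of both groups. No stretch of 31 bases was shared between transcripts of any 2 Derlins, any 2 EDEM genes, or Herpud1 and its paralog Herpud2.

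**Figure D1:**
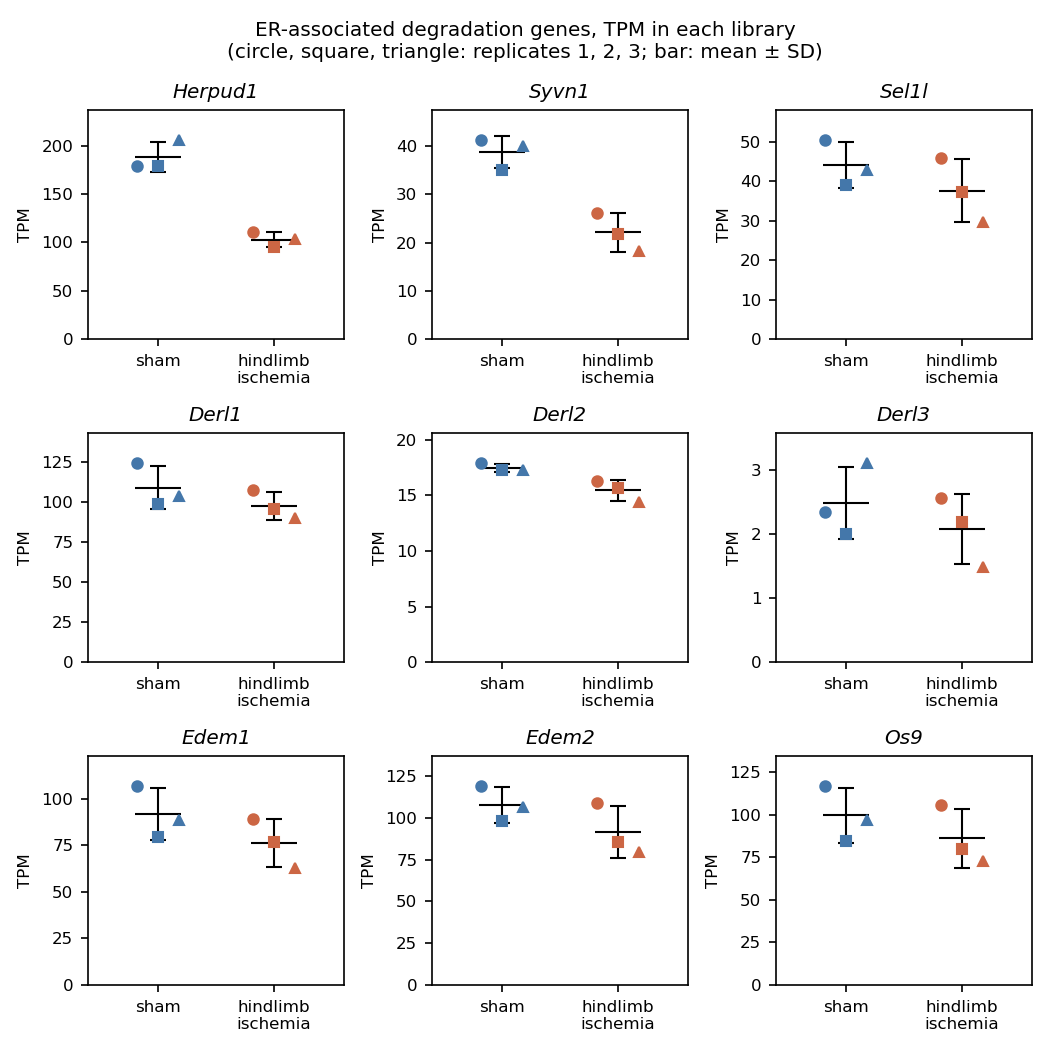
TPM of the 9 genes in each of the 6 libraries, on linear axes that start at 0, with the mean and SD of each group. Herpud1 and Syvn1 separate the groups by a wide margin and Derl2 by a narrow one, while the other 6 genes overlap.

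Herpud1 encodes a membrane protein with a ubiquitin-like domain that is bound to the ligase complex. It lies on chromosome 8 (94386438 to 94395377, GRCm38). Its values were 179, 179 and 206 TPM in sham replicates 1, 2 and 3, and 110.4, 94.9 and 103 TPM in hindlimb ischemia replicates 1, 2 and 3. Every ischemia library lay below every sham library. The ischemia mean of 103 ± 7.77 TPM was 0.548 times the sham mean, a log2 fold change of -0.86 (SE 0.13) on the log2(TPM + 1) scale used throughout. These values rest on 4383 to 9831 reads per library. The antisense gene Gm15890 overlaps Herpud1 on the opposite strand, and had 6.78 ± 0.80 TPM in sham and 5.07 ± 1.10 TPM after ischemia, also without overlap. Divided by the library size factors given below, the groups of Gm15890 did overlap. Whether reads were counted by strand is not given in the sources used here, so reads of the 2 genes may not be told apart where they overlap.

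Syvn1, on chromosome 19 (6046576 to 6053712), encodes the ligase. It had 41.2, 35.0 and 39.9 TPM in the sham replicates and 26.2, 21.9 and 18.2 TPM in the ischemia replicates. Again no ischemia library reached the sham range. The ischemia mean, 22.1 ± 4.02 TPM, was 0.571 times the sham mean, with a log2 fold change of -0.79 (SE 0.17). Mrpl49, a mitochondrial ribosomal protein gene that overlaps Syvn1 on the opposite strand, had 56.6 ± 2.06 and 49.7 ± 6.03 TPM, and its groups overlapped.

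Sel1l, on chromosome 12 (91806043 to 91849157), encodes the adaptor that stabilises the ligase. Its sham values were 50.4, 38.9 and 42.9 TPM and its ischemia values 45.8, 37.3 and 29.8 TPM. The groups overlapped, with a log2 fold change of -0.24 (SE 0.18). Within each library the TPM of Syvn1 divided by that of Sel1l was 0.818, 0.900 and 0.932 in sham and 0.573, 0.586 and 0.611 after ischemia. This ratio, like the others picked after the values had been seen, does not depend on how a library is scaled. Its mean was 0.883 ± 0.0589 in sham and 0.590 ± 0.0194 after ischemia, a description only, since Syvn1 was selected on its difference. Herpud1 over Sel1l was 3.55, 4.59 and 4.80 in sham and 2.41, 2.54 and 3.47 after ischemia, so the groups came close but did not overlap. Herpud1 over Syvn1, by contrast, overlapped, at 4.87 ± 0.45 and 4.74 ± 0.817.

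**Figure D2:**
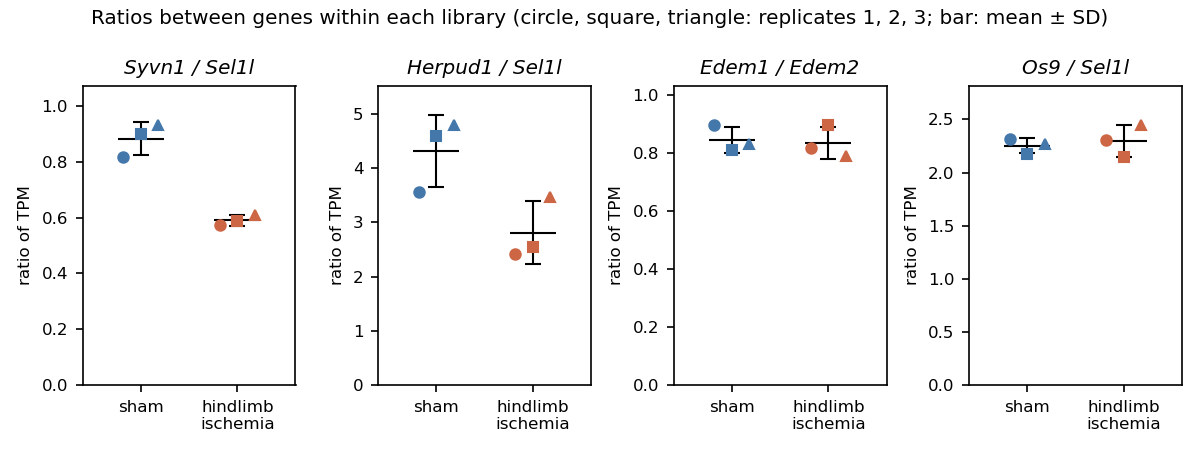
Ratios of TPM between genes of the pathway within each library, on linear axes that start at 0, with the mean and SD of each group. Syvn1 over Sel1l was 0.818 or higher in sham and 0.611 or lower after ischemia, whereas Os9 over Sel1l and Edem1 over Edem2 overlapped.

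The Derlins, membrane proteins that help substrates cross the membrane, showed smaller differences. Derl1 (chromosome 15, 57869502 to 57892448) had 124, 98.7 and 104 TPM in sham and 107, 95.6 and 90.2 TPM after ischemia. Its groups overlapped, with a log2 fold change of -0.15 (SE 0.14). Derl2 (chromosome 11, 71007164 to 71019841) had 17.9, 17.3 and 17.3 TPM in sham and 16.3, 15.7 and 14.4 TPM after ischemia. Its groups did not overlap, although its log2 fold change of -0.17 (SE 0.15) was small. After division by size factors they did overlap, at 15.4 to 17.6 scaled TPM in sham and 15.4 to 16.3 after ischemia. Mis12, a kinetochore gene on the opposite strand, overlaps Derl2 and had 53.0 ± 7.04 and 46.2 ± 1.81 TPM. Derl3 (chromosome 10, 75893413 to 75895941) had 2.35, 2.00 and 3.10 TPM in sham and 2.55, 2.19 and 1.48 TPM after ischemia. Its groups overlapped, with a log2 fold change of -0.18 (SE 0.20).

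The genes that read the sugar chain overlapped between groups throughout. Edem1 (chromosome 6, 108828641 to 108859356) had 107, 79.4 and 88.7 TPM in sham and 89.1, 76.7 and 63.0 TPM after ischemia, with a log2 fold change of -0.27 (SE 0.17). Edem2 (chromosome 2, 155701677 to 155729475), which makes an early mannose cut, had 119, 97.8 and 107 TPM and then 109, 85.6 and 79.8 TPM, with a log2 fold change of -0.24 (SE 0.15). Os9 (chromosome 10, 127095650 to 127121131) had 117, 84.8 and 97.2 TPM and then 106, 80.1 and 72.9 TPM, with a log2 fold change of -0.21 (SE 0.17). For each of the 3 genes, ischemia replicate 1 lay inside the sham range and replicates 2 and 3 below it, so the overlap rested on replicate 1. Their proportions were nearly fixed: Edem1 over Edem2 was 0.847 ± 0.0449 in sham and 0.835 ± 0.0550 after ischemia, and Os9 over Sel1l was 2.25 ± 0.0726 and 2.30 ± 0.152.

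All 9 genes thus had a lower mean after hindlimb ischemia, in a table where 69.1% of the genes tested had a negative log2 fold change. Among protein-coding genes, which all 9 are, the share was 77.1%. The values of 3 of the 9, Herpud1, Syvn1 and Derl2, were lower without overlap, as were 6.68% of all genes tested. Because the members were chosen with this comparison in view, nothing is read from these counts. The median log2 fold change was -0.24 over the 9 genes and -0.21 over the 7 other than Herpud1 and Syvn1. It was -0.09 over all genes tested and -0.12 over the protein-coding genes. Over all genes tested, 0 of 13787 genes (0%) passed an adjusted p of 0.05 by limma-trend with Benjamini-Hochberg adjustment, with 537 at an unadjusted p under 0.05. Limma-voom on recovered reads also called 0. In the authors' deposited table, whose sign is turned here to ischemia over sham, the log2 fold change was -0.61 for Herpud1 and -0.59 for Syvn1, and from -0.13 for Edem1 to -0.04 for Derl1 among the other 7. Of the 9, Herpud1 and Syvn1 are in the authors' deposited table of 34 genes. Their adjusted p in the authors' deposited table was 0.000607 and 0.000295, given as a description because the genes were selected on this comparison. The table of 34 genes was not cut at 0.05, since it also holds Dnajb1, with an authors' adjusted p of 0.187.

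The libraries also differed in a way the groups do not explain. Sham replicate 1 was the highest sham library for 7 of the 9 genes and for 67.7% of all genes tested. Ischemia replicate 1 was the highest of its group for 9 of 9 (60.4% of all genes), and ischemia replicate 3 the lowest for 8 of 9 (59.1% of all genes), Herpud1 being the exception. Division by median-of-ratios size factors, from 0.886 for ischemia replicate 3 to 1.17 for sham replicate 1, moved the median of all genes tested from -0.09 to 0.01 (log2). With it Derl1 had 107, 100.3 and 103 scaled TPM in sham and 101, 98.7 and 102 after ischemia, and its log2 fold change was -0.04. The 7 genes other than Herpud1 and Syvn1 then had a median of -0.11, while Herpud1 had -0.75 and Syvn1 -0.68. Scaled Herpud1 was 154, 182 and 204 in sham and 104, 98.0 and 117 after ischemia, and scaled Syvn1 35.3, 35.6 and 39.7 against 24.8, 22.6 and 20.5, so neither overlapped (5.56% of all genes tested on this scale). With dependence on GC content and length removed library by library among protein-coding genes, Herpud1 had -0.72 (SE 0.09), Syvn1 -0.57 (SE 0.08), and the other 7 from -0.13 to 0.00.

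**Figure D3:**
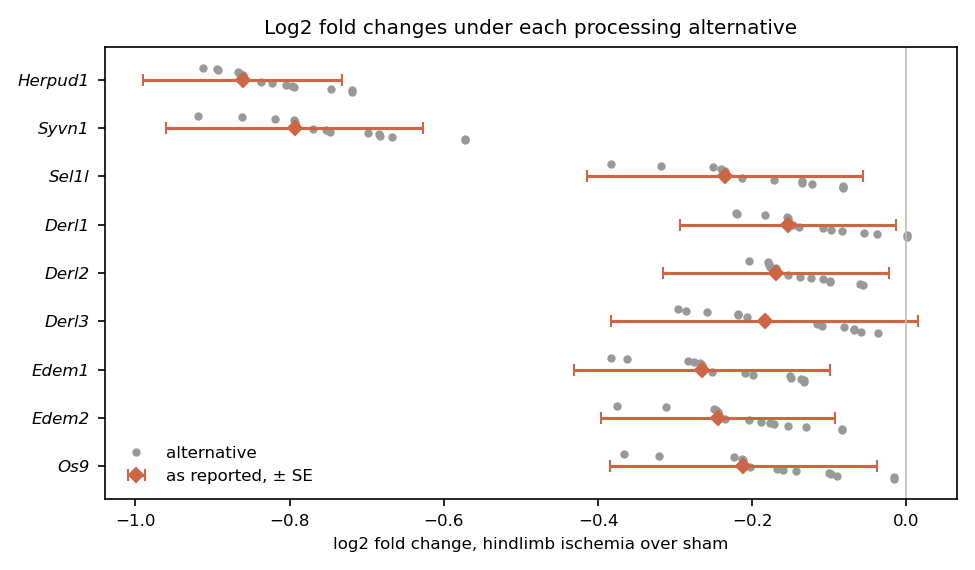
Log2 fold change of each gene, hindlimb ischemia over sham, as reported with its SE (diamonds) and under the 18 processing alternatives (grey points; 17 for Derl3). Herpud1 stays between -0.91 and -0.72 and Syvn1 between -0.92 and -0.57, while Derl1 and Os9 come within 0.02 of 0.

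The rest of the pathway was followed through 67 further genes listed by role, of which 65 were expressed at the level set for testing. None passed the adjusted threshold in either direction (0 of 65; 2 lower and 0 higher at an unadjusted p under 0.05, where all genes gave 2.95% lower and 0.943% higher). Their median log2 fold change was -0.14, or -0.03 after division by size factors. Negative values were found in 50 of 65, where protein-coding genes gave 77.1% and all genes tested 69.1%. The values of 8 were lower and 1 higher without overlap, where all genes gave 6.68% and 1.65%. The 2 at an unadjusted p under 0.05 were Txndc11, a thioredoxin-like partner of EDEM proteins (32.8 ± 3.28 in sham, 24.3 ± 4.95 TPM after ischemia, log2 -0.43), and the membrane ligase gene Rnf185 (18.9 ± 3.90 and 13.9 ± 1.14 TPM, log2 -0.40).

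Genes acting on the sugar chain had a median of -0.14 over 6 tested. The mannosidase gene Man1b1 had 19.1 ± 3.42 and 14.5 ± 1.49 TPM without overlap, and Ngly1, which removes sugar chains in the cytosol, 17.9 ± 2.35 and 15.5 ± 1.45 TPM. Erlec1, a lectin gene related to Os9, had a mean in the other direction, 5.10 ± 0.568 and 7.20 ± 3.02 TPM, with a wide spread after ischemia. Edem3, the third mannosidase of its family, had 28.1 ± 6.79 and 25.0 ± 4.85 TPM. Among 18 ligase complex partners and other membrane ligases, 17 had negative values, where protein-coding genes gave 77.1% and all genes tested 69.1%. The median of this list was -0.16, or -0.05 after division by size factors. Herpud2, the paralog of Herpud1, had 40.1 ± 7.19 and 33.6 ± 3.10 TPM, and its groups overlapped.

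Of the genes listed with the ubiquitin-conjugating enzymes (median -0.05 over 6), Ube2j1, the membrane-bound partner of SYVN1, had 57.4 ± 8.42 and 50.8 ± 4.63 TPM. Ube2g2, a cytosolic enzyme of the same family, had 76.1 ± 10.7 and 59.3 ± 11.9 TPM. Ube2k had 33.8 ± 0.642 and 37.3 ± 2.55 TPM and was the gene with higher values without overlap. In the extraction machinery (median -0.19 over 11), Vcp had 324, 244 and 252 TPM in sham and 304, 236 and 189 TPM after ischemia. Selenos, a membrane anchor of VCP, had 181 ± 14.7 and 158 ± 4.54 TPM without overlap, and the signal peptide peptidase gene Hm13 52.5 ± 4.54 and 44.2 ± 5.79 TPM. Ubxn6, a VCP cofactor gene, had 11.9 ± 1.17 and 9.86 ± 1.28 TPM. Genes of delivery to the proteasome had a median of -0.11 over 15, with the deubiquitinase gene Usp19 at 68.6 ± 13.5 and 52.0 ± 14.5 TPM. In that list Ubqln4, a shuttle factor gene, had 58.3 ± 11.7 and 46.9 ± 10.2 TPM, and the co-chaperone gene Sgta 99.3 ± 5.56 and 82.5 ± 15.7 TPM. Among 9 genes listed with the endoplasmic reticulum reductases and J proteins (median -0.13), Sdf2 had 51.4 ± 2.58 and 42.3 ± 2.70 TPM. In that list Dnajb2 had 2.86 ± 0.184 and 2.14 ± 0.243 TPM, and neither gene overlapped between groups. After division by size factors, the groups of Ube2k, Selenos, Sdf2 and Dnajb2 all overlapped.

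**Figure D4:**
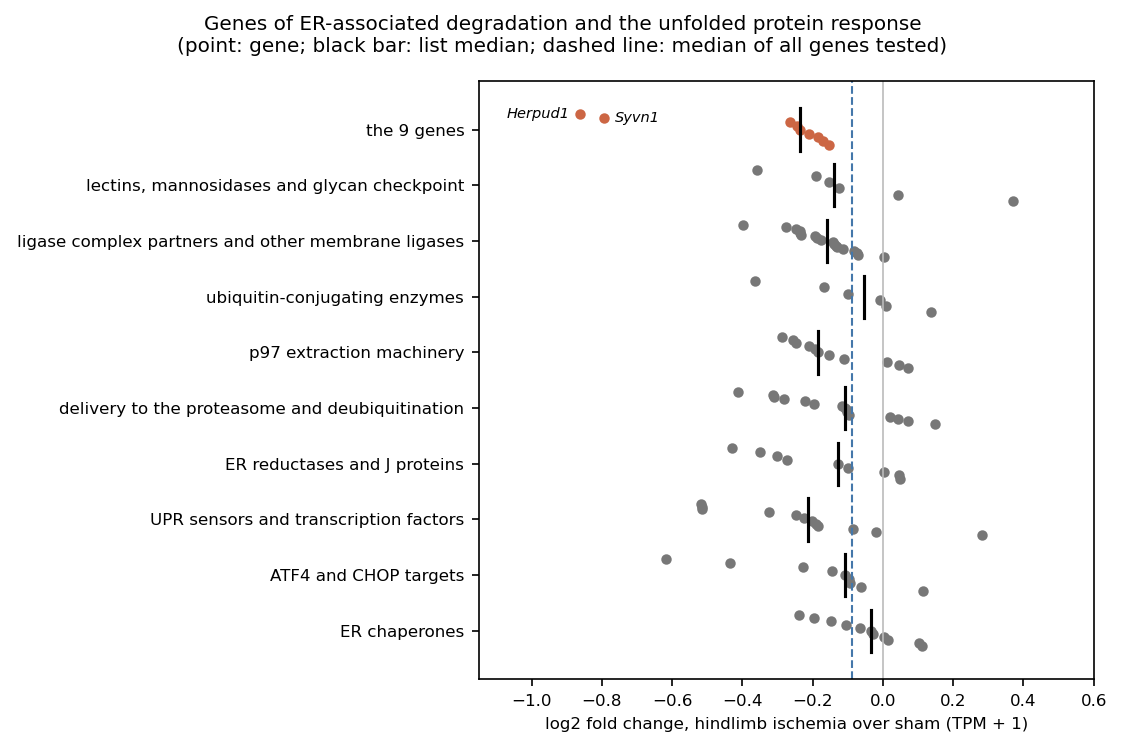
Log2 fold change of each tested gene (points), hindlimb ischemia over sham, in the lists of the pathway, the unfolded protein response and the chaperones (marker and immediate early lists are not drawn), with the list median as a black bar and the median of all genes tested (-0.09) as a dashed line. Among the genes drawn, Herpud1 (-0.86) and Syvn1 (-0.79) are followed by Ppp1r15a (-0.62).

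The unfolded protein response was read through its sensors and factors, of which 0 of 12 passed the adjusted threshold and 2 were lower at an unadjusted p under 0.05 (2.95% of all genes tested). The median log2 fold change was -0.21, or -0.10 with size factors. Ern1, which encodes the sensor IRE1 alpha, had 28.8, 17.9 and 20.3 TPM in sham and 27.7, 19.7 and 15.9 TPM after ischemia, and the groups overlapped. Atf6 likewise overlapped, at 17.7 ± 4.73 and 15.4 ± 3.53 TPM. Eif2ak3, the gene of the sensor PERK, had 20.1, 14.6 and 17.1 TPM and then 16.8, 12.1 and 7.82 TPM, with overlap and a log2 fold change of -0.51 (SE 0.24).

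Xbp1, whose product is switched on by IRE1 splicing, had 200.1, 174 and 176 TPM in sham and 168, 150.2 and 144 TPM after ischemia. These groups did not overlap (log2 fold change -0.25, SE 0.13), but gene-level TPM do not separate the spliced form. Atf4 had 108 ± 6.39 and 107 ± 10.4 TPM. Ddit3, which encodes CHOP, had 8.91, 10.1 and 8.60 TPM in sham and 5.56, 5.35 and 7.64 TPM after ischemia without overlap (log2 -0.52, SE 0.18). After division by size factors the groups of Ddit3 overlapped. Creb3l2 had 9.50 ± 1.31 and 6.41 ± 1.48 TPM (log2 -0.51, SE 0.19). Of 9 tested targets of ATF4 and CHOP (median -0.11), 0 passed and 2 were lower at an unadjusted p under 0.05, where all genes gave 2.95%. These were Ppp1r15a, a phosphatase subunit gene (25.3 ± 3.79 and 16.7 ± 6.45 TPM, log2 -0.62), and Sesn2 (7.96 ± 0.403 and 5.67 ± 0.915 TPM, log2 -0.43). The hypoxia and stress gene Ddit4 had 1.59 ± 0.261 and 1.22 ± 0.224 TPM.

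**Figure D5:**
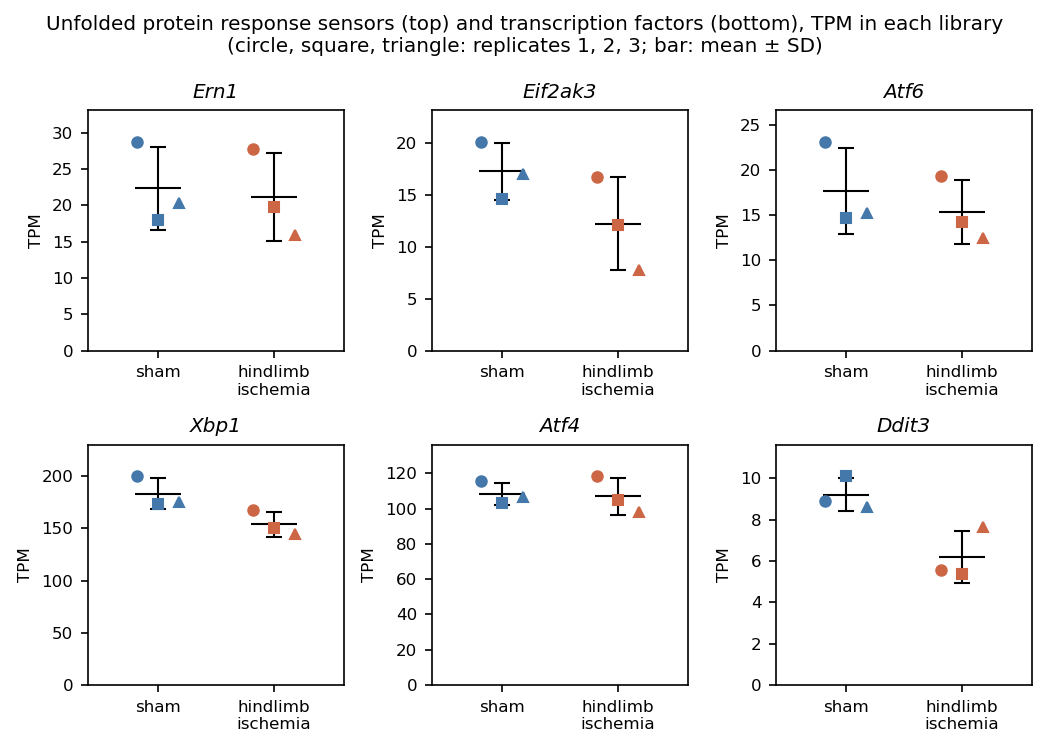
TPM in each library of the sensor genes Ern1, Eif2ak3 and Atf6 and the factor genes Xbp1, Atf4 and Ddit3, on linear axes that start at 0, with the mean and SD of each group. In these unscaled TPM the groups are apart for Xbp1 and Ddit3 and overlap for the other 4. After division by size factors Ddit3 also overlapped.

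Endoplasmic reticulum chaperones, 7 of which carry the same promoter element as Syvn1, had a median of -0.03 over 11 tested, with 0 past either threshold. Hspa5, the most studied target of that element, had 980, 916 and 936 TPM in sham and 885, 792 and 730.0 TPM after ischemia, without overlap (log2 fold change -0.24, SE 0.12). Dnajc3 had 109 ± 8.69 and 95.5 ± 12.2 TPM, and Pdia3 794 ± 75.6 and 855 ± 18.2 TPM.

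The 6 named genes whose profile over the 6 libraries lay nearest to that of Herpud1, by root mean square difference of centred log2(TPM + 1) among 8609 genes with a mean of at least 10 TPM, were Fbp1, Hspa8, Syvn1, Gna15, Dusp6 and Dnajb1, at 0.14 to 0.19. Syvn1 was thus the third nearest named gene, at 0.16. Herpud1 and Syvn1 were both selected on their difference in these same libraries, so this rank largely restates the selection. Fbp1, a gluconeogenesis gene, had 13.6, 11.7 and 13.6 TPM in sham and 8.77, 7.86 and 7.05 TPM after ischemia. Hspa8, the constitutive cytosolic chaperone gene, had 1180 ± 52.0 and 765 ± 52.5 TPM, and Dnajb1, its co-chaperone, 81.8 ± 5.75 and 55.0 ± 1.36 TPM. Dusp6 had 19.8 ± 2.72 and 12.4 ± 1.18 TPM, and Gna15 63.5 ± 3.47 and 42.2 ± 7.27 TPM. All 6 are in the authors' deposited table of 34 genes. That table comes from the same comparison and also holds Herpud1, so their presence in it is no separate evidence. Each has a lower mean after ischemia, which nearness to Herpud1 fixes in advance.

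Markers of the sorted population were high in all libraries, with Mpo from 8448 to 12818 TPM and Elane from 9607 to 12367 TPM, and 0 of 13 such markers passed at an unadjusted p under 0.05 (the smallest were Cd34, Csf1r and Irf8, with log2 fold changes of -0.34, -0.35 and -0.24). The summed level of 17 plasma cell and B lineage markers was 451 to 529 TPM in sham and 298 to 407.5 TPM after ischemia, most of it Ighm, and 0 of the 17 were at 0 in every library. Of its 7 tested genes, 2 were lower at an unadjusted p under 0.05 (2.95% of all genes tested, the share that also stands beside the counts that follow), Ighm (log2 -0.39) and Cd79a (log2 -0.82), and Igkc ranged from 1.46 to 49.7 TPM among the ischemia libraries alone. The plasma cell genes Prdm1, Irf4, Tnfrsf17 and Mzb1 stayed at or below 0.438 TPM in every library. The summed level of 13 erythroid and megakaryocyte markers was 234 to 275 TPM in sham and 96.9 to 170.5 TPM after ischemia, with 0 of 13 at 0 throughout. Of its 12 tested genes, 7 were lower at an unadjusted p under 0.05: 4 globin genes (Hba-a1, Hba-a2, Hbb-bs and Hbb-bt), Klf1, Gata1 and Gfi1b, with log2 fold changes from -1.88 for Hba-a2 to -0.38 for Gata1. That of 20 immediate early and heat shock genes was 2177 to 2582 TPM in sham and 1698 to 1883 TPM after ischemia. Of its 16 tested genes, 12 were lower at an unadjusted p under 0.05: Fos, Jun, Egr1, Ier3, Btg2, Dusp1, Zfp36, Hspa1a, Hspa1b, Hspa8, Hsph1 and Dnajb1, with log2 fold changes from -1.41 for Hspa1a to -0.40 for Zfp36. These 3 sums separated the groups as Herpud1 and Syvn1 did, and their part in the result was not tested. Sums of 9 marrow macrophage and 8 mast cell and basophil markers overlapped, at 22.1 to 29.2 TPM and 1347 to 1939 TPM over all libraries. In these 2 lists C1qb (log2 -0.56) and Gzmb (log2 -0.51) were lower at an unadjusted p under 0.05, and Adgre1, Vcam1, Prss34 and Mcpt8 had log2 fold changes from -0.25 to 0.10. In bulk samples, fewer cells of a type and less RNA per cell cannot be told apart.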

How the data were processed

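Bulk RNA sequencing of progenitors sorted from mouse bone marrow gave 6 libraries, 3 per group. Cells were sorted into extraction buffer, RNA was extracted with a PicoPure kit and libraries followed Illumina protocols, per the labels' protocols. Per the file headers, the authors deposited a table of TPM covering 24205 genes and 6 libraries, together with their own log2 fold change and adjusted p-value. No direction is named for that log2 value. Its Spearman correlation across genes with ischemia over sham from the TPM was -0.97, so its sign was turned. The submitters' processing notes name mm10 as the genome build. The aligner, counter and annotation, and how the authors tested, were not stated in the sources used here. A short list of 34 genes holds 6 further per-sample columns whose names match no label, and these were not used here.

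The 13787 genes that reached 1 TPM in 3 or more libraries were fitted on log2(TPM + 1) with limma-trend (limma 3.58.1, R 4.3.3; robust empirical Bayes, no covariate), and p-values were adjusted over all of them by the Benjamini-Hochberg method. The pseudocount of 1 makes fold changes of low genes smaller. TPM keep no depth, but multiplied by GENCODE M21 exon-union length they came to whole reads for 14658 genes in every library (60.6%, tolerance 0.01 reads), among them Herpud1, Sel1l, Derl2 and Edem2. Reads of the other 5 members are approximate, as are the library totals of 41426445 to 53062793 reads. No 2 libraries agreed within sampling noise (chi-square per gene from 13.3 to 123). Of 191 distinct names in the lists, 9 were found under another name through their Ensembl ID or an older symbol. Members and gene lists were chosen with earlier results of these data known. Genes named are the 9 members, the members of each list with an unadjusted p under 0.05 or among its 3 smallest, Vcp, Herpud2, Edem3 and Xbp1, Atf6, Ern1, Eif2ak3, Atf4, Ddit3 and Hspa5 by name, and the 6 nearest profiles. Mpo, Elane, 4 plasma cell genes and the genes that overlap members were named outside this rule, and 1 gene within it is not reported here. The design had foreseen edgeR on counts, which TPM do not allow. A planned comparison of proteins was replaced by shared stretches of transcript.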

Additional observations from a re-analysis of the deposited data

How the results depend on the processing

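The 18 alternatives were 3 changes of normalization or variance model, 2 filters, 2 pseudocounts, protein-coding genes only, voom on recovered reads, GC and length removal, the replicate number as a block with and without that removal, and leaving out each library. All 9 genes had a negative log2 fold change under each, except Derl1 under GC and length removal with or without the block (0.00) and Derl3, which was not tested with a mean of at least 5 TPM. Herpud1 ran from -0.91 to -0.72 and Syvn1 from -0.92 to -0.57. Negative values among other genes of the pathway ran from 40 to 58, against 50 as reported. The share of negative values over all genes ran from 46.8% with size factors to 77.1% with protein-coding genes only. The number of genes past an adjusted p of 0.05, 0 as reported, was 1 without a trend, 6 with GC and length removal, 69 with the replicate block, 9 with the replicate block and that removal, and 0 to 33 with a library left out, 33 being without ischemia replicate 1 and 1 without ischemia replicate 2 or 3. Lower genes at an unadjusted p under 0.05, 407 as reported, were 639 with no filter, 1516 with the replicate block, 620 with the block and GC and length removal, and 172 (without ischemia replicate 2) to 2115 (without ischemia replicate 1) with a library left out, 206 without sham replicate 1 and 203 without ischemia replicate 3. The cause was not tested. Same-numbered libraries deviated together with correlations of 0.39, 0.18 and 0.08, and sham replicate 2 correlated better with ischemia replicate 3 (0.38). By chi-square per gene, sham replicate 1 was nearer to ischemia replicate 1 (20.6) than to sham replicates 2 and 3 (44.0 and 35.7). Sham replicates 2 and 3 were nearest to each other (13.3). Whether the replicate numbers mark pairs is not settled by these values. With size factors 366 genes were lower and 332 higher at an unadjusted p under 0.05, against 407 and 130 as reported. Derl3 rests on the fewest reads of the 9 genes, about 73 to 127 per library.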

Other observations

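Of genes outside the lists, Wfs1 and Bhlha15 were looked up after their values had been seen in the authors' deposited table of 34 genes. Wfs1, which encodes an endoplasmic reticulum membrane protein, had 7.68, 5.61 and 5.83 TPM in sham and 4.24, 3.52 and 3.61 TPM after ischemia. Bhlha15, which encodes the secretory cell factor MIST1, had 7.70, 5.41 and 5.10 TPM in sham and 3.87, 3.36 and 2.02 TPM after ischemia. Neither overlapped between groups (6.68% of all genes tested were lower without overlap), and neither was past the adjusted threshold in limma-trend.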
